A study of Mus musculus with 4 samples.

Results

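The 37 genes described here act in DNA replication and S phase. They were taken by gene symbol from tables of RNA levels in mouse spleen T cells, and all 37 were found among the 22473 gene symbols used. By role they are 4 G1/S cyclins and kinases, 2 E2F factors, 4 origin licensing factors, 6 subunits of the MCM helicase, 4 helicase activators, 4 polymerase and primase subunits, 5 parts of the sliding clamp and its loader, 2 Okazaki fragment enzymes, 4 enzymes of nucleotide supply and 2 chromatin assembly subunits. Levels are in FPKM, which corrects fragments for the length of the transcript and for the depth of the library, so they can be compared between genes of different length. Of the 37 genes, 36 reached 1 FPKM in all 4 libraries. The exception was Orc1, which was below that level in WT iNKT and in WT CD44hi.

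Before a cell divides it copies its genome in S phase. Cyclin D with CDK4 and cyclin E with CDK2 phosphorylate proteins of the retinoblastoma family in G1, which frees E2F transcription factors to switch on the genes of replication. Origins are licensed when ORC, CDC6 and CDT1 load the MCM helicase, and CDC45 and the GINS complex then turn that helicase into a moving fork, where polymerases, the PCNA clamp and nucleotide enzymes do the copying. Resting T cells keep much of this programme low and raise it after activation, so its transcripts are widely read as a mark of cells in or near S phase.

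The KO groups came from Ezh2fl/fl CD4-Cre mice and the WT groups from wild-type mice, all on a C57BL/6 background. Ezh2 encodes the catalytic subunit of Polycomb repressive complex 2, which methylates histone H3 at lysine 27, and CD4-Cre acts in cells that express Cd4 during thymic development, so the deletion is not limited to the cells sorted. Invariant natural killer T (iNKT) cells, T cells with an invariant receptor for lipids shown by CD1d, were sorted by T cell receptor beta and CD1d tetramers loaded with PBS-57. CD44hi cells, the CD4+ T cells with high CD44 that include memory and activated cells, were sorted by T cell receptor beta, CD44 and CD4. The 4 groups were KO iNKT, WT iNKT, KO CD44hi and WT CD44hi, with 1 library each, so the differences have no replicate check and no test could be made. The age of the mice, and how many were used for a library, are not given in the sources used here, nor is it said whether the CD44hi sort removed cells that bind the tetramer.

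Estimated depth was 1.08 times that of WT iNKT in KO iNKT, 4.90 times in KO CD44hi and 3.69 times in WT CD44hi, and differences of depth or batch between the iNKT and CD44hi files cannot be told apart from cell type. Ezh2 itself was at 16.8 FPKM in KO iNKT, 15.3 in WT iNKT, 18.5 in KO CD44hi and 28.9 in WT CD44hi, and since Cre removes only the floxed part, these values do not check the labels. The Y-linked gene Eif2s3y was at 22.7 FPKM in WT CD44hi and listed at 0 in the other 3 libraries. Xist was at 46.8 FPKM in WT CD44hi and at 55.3 to 80.0 in the others. WT CD44hi thus held cells of a male donor as well as Xist, and the others showed Xist without Eif2s3y. The 8 T cell genes summed to 2117 to 2441 FPKM, with Cd3g at 513 to 631 and Lat at 233 to 550. Zbtb16, which encodes the iNKT lineage factor PLZF, was at 63.1 FPKM in KO iNKT, 28.2 in WT iNKT, 41.4 in KO CD44hi and 4.30 in WT CD44hi. In the iNKT libraries 4 (KO) and 6 (WT) of 10 B cell markers were at 0, Pax5 and Ebf1 among them, and the 10 summed to 1.72 and 1.55 FPKM, with Cd79a and Cd79b at 0.195 to 0.541. In the CD44hi libraries none of these 10 was at 0, and their sum was 91.4 FPKM in KO and 61.8 in WT, with Cd79a and Cd79b at 15.3 to 30.1.

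Promoter sequences of 4 of the genes are shown because E2F factors act through short DNA elements near the start sites of replication genes. The search was for the letters TTT, then CC, CG, GC or GG, then CGC (an E2F element of 8 letters), on both strands of a window from 250 bases before to 50 bases after each start in RefSeq (GRCm38.p6). Each line below gives the 250 bases before the RefSeq start, read 5′ to 3′ on the gene's strand, and capitals mark the matches. The genes were chosen after their values were seen.

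Mcm5 and Mcm6 encode subunits of the helicase ring. In both promoters a match on each strand overlaps in a run of 12 bases, and the run of Mcm6 is the reverse complement of the run of Mcm5.

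Mcm5 (chr8:75109259-75109508, plus strand): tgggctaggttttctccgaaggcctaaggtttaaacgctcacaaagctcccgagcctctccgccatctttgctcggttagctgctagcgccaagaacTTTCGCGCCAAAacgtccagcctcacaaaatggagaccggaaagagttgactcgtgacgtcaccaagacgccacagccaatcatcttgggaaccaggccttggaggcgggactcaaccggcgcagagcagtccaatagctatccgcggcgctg

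Mcm6 (chr1:128359706-128359955, minus strand): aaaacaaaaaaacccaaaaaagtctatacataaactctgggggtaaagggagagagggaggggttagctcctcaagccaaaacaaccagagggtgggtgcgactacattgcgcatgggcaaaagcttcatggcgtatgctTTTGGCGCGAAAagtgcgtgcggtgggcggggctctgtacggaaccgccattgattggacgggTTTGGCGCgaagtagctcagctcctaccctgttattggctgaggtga

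Pola1, the catalytic subunit of polymerase alpha, differed in opposite directions between the genotypes of the 2 cell types.

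Pola1 (chrX:93632156-93632405, minus strand): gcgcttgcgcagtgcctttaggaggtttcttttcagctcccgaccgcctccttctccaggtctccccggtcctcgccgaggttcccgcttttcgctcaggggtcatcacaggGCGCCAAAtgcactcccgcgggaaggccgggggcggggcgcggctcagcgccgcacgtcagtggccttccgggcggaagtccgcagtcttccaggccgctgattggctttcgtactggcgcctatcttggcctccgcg

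Chaf1a had the largest log2 difference of the 37 between the iNKT genotypes and no 8-letter match. Its capitals mark matches to the 7-letter form, which drops the first T.

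Chaf1a (chr17:56040166-56040415, plus strand): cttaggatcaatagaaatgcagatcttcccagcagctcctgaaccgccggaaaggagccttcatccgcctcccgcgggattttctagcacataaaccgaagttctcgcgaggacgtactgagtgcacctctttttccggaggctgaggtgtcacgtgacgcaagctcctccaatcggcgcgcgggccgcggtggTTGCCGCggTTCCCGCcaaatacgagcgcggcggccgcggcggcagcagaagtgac

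The first comparison, KO iNKT against WT iNKT, asks how these genes differ between the genotypes in iNKT cells. Most of the replication genes were higher in KO iNKT, with Chaf1a, Mcm10 and Cdc6 more than 3 times their WT level and Rfc2 and Rfc4 close to it. Summed over the 37 genes, the level was 995 FPKM in KO iNKT and 644 FPKM in WT iNKT. Called here means a difference of at least 2-fold on the log2(FPKM + 1) scale in a measured gene, and measured means at 1 FPKM or more in either library. By that rule 11 of the 37 genes were higher in KO iNKT, where 6.08% of all 10817 measured genes were, and 0 were lower, where 3.35% were. The log2 difference was above 0 in 36 of the 37 genes, with Rfc4 the exception (above 0 as well when scaled to the summed T cell genes), beside 55.9% of all measured genes. Its median was 0.73 over the 37 genes and 0.05 over all measured genes. The 95% exact counting interval of the plain ratio lay above 1 in 33 of the 37 genes, beside 30.2% of all genes with an interval, and below 1 in 0, beside 20.1%. In the other 4 (Orc1, Rfc2, Rfc4 and Tk1) the interval held 1. These intervals come from estimated fragments and hold the error of counting alone, without that between mice or sorts. With 5 FPKM in place of 1 added before the log, 0 of the 37 genes were called, where 1.83% of all genes were higher, and with a call at 1.5-fold 22 were, where 14.3% were. In bulk samples a larger share of cells in cycle and more RNA per cell cannot be told apart. Markers of other cell types were low in both iNKT libraries: the 13 myeloid and plasmacytoid dendritic cell genes summed to 96.4 FPKM in KO and 135 in WT, of which Bst2 made up 78.7 and 101, and Siglech was at 0 in both. The 14 red cell genes summed to 40.7 FPKM in KO and 31.4 in WT, with Tfrc at 21.6 and 12.0, Hba-a1 at 12.6 and 15.8, and Klf1 and Epor at 0 in both. The 7 plasma cell genes summed to 50.9 and 46.6 FPKM, mostly Xbp1, with Tnfrsf17 at 0 in both, and the 5 germinal centre B cell genes to 6.80 and 9.09, mostly S1pr2.

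**Figure D1:**
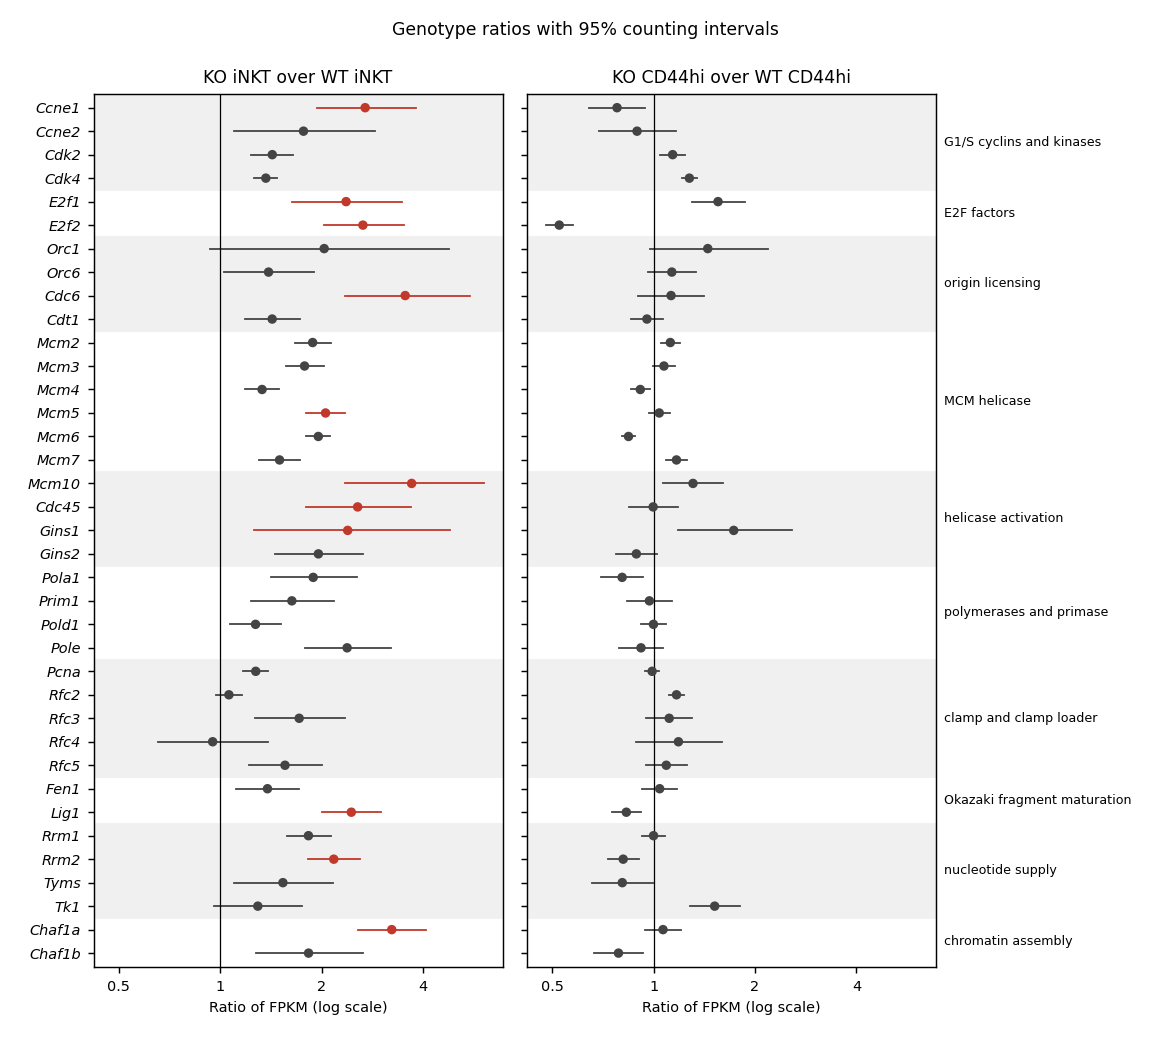
Ratio of FPKM with its 95% exact counting interval (log axis) for the 37 genes in role order, KO iNKT over WT iNKT on the left and KO CD44hi over WT CD44hi on the right, 1 library per group; red marks genes called at least 2-fold on the log2(FPKM + 1) scale. On the left 36 of 37 points lie above 1 and 11 are red, and on the right the points lie on both sides of 1 and none is red.

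Cyclin E and its kinase drive entry into S phase. Positions of the called genes are those of GENCODE M21 on GRCm38, the assembly known as mm10. Ccne1 (chromosome 7, 38097984 to 38107534, minus strand), one of the cyclin E genes, was at 13.4 FPKM in KO iNKT, 4.97 in WT iNKT, 4.76 in KO CD44hi and 6.11 in WT CD44hi. Ccne2, the other cyclin E gene, was at 3.41, 1.93, 1.80 and 2.02 FPKM in the same order. KO iNKT was the highest library for both, and the remaining 3 lay at 4.76 to 6.11 FPKM for Ccne1 and 1.80 to 2.02 for Ccne2. Between the CD44hi libraries, Ccne1 was lower in KO, at a ratio of 0.779 (interval 0.644 to 0.941). The KO to WT ratio of Ccne1 in iNKT was 2.69 (interval 1.93 to 3.81), past the call, and that of Ccne2 was 1.77 (1.10 to 2.89), short of it. Cdk2, the partner of cyclin E, was at 38.7 FPKM in KO iNKT, 27.1 in WT iNKT, 24.3 in KO CD44hi and 21.3 in WT CD44hi. Cdk4, the partner of cyclin D, was at 143, 105, 86.1 and 67.4 FPKM in these libraries. Both kinases were higher in KO than in WT in each cell type and higher in iNKT than in CD44hi in each genotype, with every such interval above 1 and no difference past 2-fold. Ccne2 shares 609 of its 3495 annotated exon bases with Ints8 and Cdk4 641 of 3249 with Tspan31, both on the opposite strand, and the kit does not mark strand.

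E2F factors bind the promoters of S phase genes. E2f1 (chromosome 2, 154559407 to 154569892, minus strand) was at 7.30 FPKM in KO iNKT, 3.09 in WT iNKT, 5.75 in KO CD44hi and 3.70 in WT CD44hi. Its KO to WT ratio was 2.36 in iNKT (interval 1.64 to 3.47) and 1.55 in CD44hi (1.299 to 1.86), so KO was the higher library in both cell types. E2f2 (chromosome 4, 136172394 to 136196057, plus strand) was at 8.49 FPKM in KO iNKT, 3.20 in WT iNKT, 6.82 in KO CD44hi and 12.99 in WT CD44hi. Its KO to WT ratio was 2.65 in iNKT (2.03 to 3.503) and 0.525 in CD44hi (0.478 to 0.576). E2f2 was the only one of the 37 genes with its highest level in WT CD44hi, and it had the widest span over the 4 libraries, 4.06-fold.

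Licensing factors mark origins in G1. Orc1, the ORC subunit that cycles in G1, was at 1.40 FPKM in KO iNKT, 0.689 in WT iNKT, 1.06 in KO CD44hi and 0.729 in WT CD44hi. Its ratio of 2.04 in iNKT had an interval from 0.932 to 4.78, from about 22.3 and 10.2 estimated fragments, and the gene was not called. Cdc6 (chromosome 11, 98907801 to 98923940, plus strand), the ATPase that joins ORC to load the helicase, was at 4.59 FPKM in KO iNKT, 1.297 in WT iNKT, 1.79 in KO CD44hi and 1.59 in WT CD44hi. KO iNKT stood apart from the other 3 libraries, with a KO to WT ratio of 3.54 in iNKT (2.34 to 5.52) and 1.13 in CD44hi (0.899 to 1.41). Cdt1, which brings the helicase to the origin, was at 24.9 FPKM in KO iNKT, 17.4 in WT iNKT, 13.7 in KO CD44hi and 14.3 in WT CD44hi. Orc6, the smallest ORC subunit, was at 14.1, 10.1, 10.3 and 9.09 FPKM in the same order. Neither was called, and their iNKT ratios were 1.43 for Cdt1 (1.18 to 1.72) and 1.39 for Orc6 (1.03 to 1.90).

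The 6 MCM subunits form the ring that unwinds DNA, and all 6 were highest in KO iNKT. Their summed level was 278 FPKM in KO iNKT, 158 in WT iNKT, and 161 in each CD44hi library. Mcm2 was at 45.2 FPKM in KO iNKT, 24.02 in WT iNKT, 26.6 in KO CD44hi and 23.8 in WT CD44hi. Mcm3 was at 42.3, 23.7, 24.3 and 22.7 FPKM in the same order. The 3 libraries other than KO iNKT lay at 23.8 to 26.6 FPKM for Mcm2 and 22.7 to 24.3 for Mcm3. Mcm4 was at 36.8 FPKM in KO iNKT, 27.6 in WT iNKT, 23.8 in KO CD44hi and 26.1 in WT CD44hi. Mcm5 (chromosome 8, 75109569 to 75128439, plus strand) was at 39.2 FPKM in KO iNKT, 19.1 in WT iNKT, 22.6 in KO CD44hi and 21.7 in WT CD44hi. Mcm4 had the smallest and Mcm5 the largest iNKT ratio of the 6 subunits. Mcm6 was at 80.3 FPKM in KO iNKT, 41.0 in WT iNKT, 38.2 in KO CD44hi and 45.4 in WT CD44hi. Mcm7 was at 34.3, 22.9, 25.5 and 21.8 FPKM in that order. Mcm6 was the most abundant subunit in every library, although the ring holds each subunit in equal number. In iNKT the ratios were 2.06 for Mcm5 (interval 1.80 to 2.35), 1.96 for Mcm6 (1.80 to 2.12), 1.88 for Mcm2 (1.67 to 2.13), 1.78 for Mcm3 (1.56 to 2.03), 1.501 for Mcm7 (1.31 to 1.73) and 1.33 for Mcm4 (1.18 to 1.498). Mcm5 lay just inside the call at a log2 difference of 1.002, and Mcm6 just outside it at 0.95.

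Helicase activation was the role with the most called genes, 3 of 4, and had a median iNKT log2 difference of 1.09. The smaller roles of E2F factors, with 2 of 2 called, and chromatin assembly had medians of 1.10 and 1.11. Mcm10 (chromosome 2, 4989714 to 5012791, minus strand), which helps to start the loaded helicase, was at 3.70 FPKM in KO iNKT, 1.0 in WT iNKT, 2.23 in KO CD44hi and 1.71 in WT CD44hi. Its iNKT ratio of 3.70 (interval 2.34 to 6.07) was the largest plain ratio of the 37 genes. Cdc45 (chromosome 16, 18780447 to 18811987, minus strand), the helicase cofactor, was at 10.8 FPKM in KO iNKT, 4.21 in WT iNKT, 6.53 in KO CD44hi and 6.55 in WT CD44hi. Its ratio was 2.56 in iNKT (1.80 to 3.70), while the 2 CD44hi libraries were nearly equal. Gins1 (chromosome 2, 150905400 to 150931280, plus strand), a subunit of the GINS complex, was at 6.29 FPKM in KO iNKT, 2.63 in WT iNKT, 3.49 in KO CD44hi and 2.02 in WT CD44hi. Its iNKT ratio of 2.39 had a wide interval (1.26 to 4.80), from 36.1 and 14.01 estimated fragments. Gins2, another GINS subunit, was at 6.99 FPKM in KO iNKT, 3.57 in WT iNKT, 4.65 in KO CD44hi and 5.23 in WT CD44hi, and was not called (ratio 1.96 in iNKT, 1.46 to 2.65). Gins2 shares 2758 of its 4097 annotated exon bases with Gse1 on the opposite strand, which was at 15.0 to 19.2 FPKM.

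None of the 4 polymerase and primase genes was called. Pola1 was at 5.19 FPKM in KO iNKT, 2.75 in WT iNKT, 3.13 in KO CD44hi and 3.88 in WT CD44hi. Prim1, the primase that lays RNA primers with polymerase alpha, was at 17.1, 10.5, 10.4 and 10.7 FPKM in the same order. Both were highest in KO iNKT, at ratios to WT iNKT of 1.89 for Pola1 (interval 1.42 to 2.54) and 1.63 for Prim1 (1.23 to 2.17). Pole, the catalytic subunit of the leading strand polymerase epsilon, was at 4.53 FPKM in KO iNKT, 1.90 in WT iNKT, 2.26 in KO CD44hi and 2.46 in WT CD44hi. Pold1, the catalytic subunit of polymerase delta, was at 17.3 FPKM in KO iNKT, 13.6 in WT iNKT, 14.8 in KO CD44hi and 14.8 in WT CD44hi. The plain iNKT ratio of Pole was 2.38 (1.78 to 3.21), but at its low level the log2(FPKM + 1) difference was 0.93, short of the call. Pold1 had the narrowest span of the 37 genes over the 4 libraries, 1.27-fold.

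The clamp and clamp loader differed least between the iNKT genotypes, with a median log2 difference of 0.35 and 0 of 5 genes called. Pcna, the sliding clamp, was the most abundant of the 37 genes in every library, at 164 FPKM in KO iNKT, 128 in WT iNKT, 111 in KO CD44hi and 112 in WT CD44hi. Its iNKT ratio was 1.28 (interval 1.17 to 1.39). The processed pseudogenes Pcna-ps1 and Pcna-ps2 could share reads with it. Rfc2 to Rfc5 are the small subunits of the loader. Rfc3 was at 18.1 FPKM in KO iNKT, 10.5 in WT iNKT, 12.8 in KO CD44hi and 11.5 in WT CD44hi. Rfc5 was at 11.9, 7.61, 7.61 and 6.98 FPKM in the same order. These subunits were higher in KO iNKT than in WT iNKT by ratios of 1.72 (Rfc3, 1.27 to 2.34) and 1.56 (Rfc5, 1.22 to 2.005). Rfc2 was at 40.3 FPKM in KO iNKT, 38.0 in WT iNKT, 32.6 in KO CD44hi and 27.9 in WT CD44hi. Rfc4 was at 9.32 FPKM in KO iNKT, 9.81 in WT iNKT, 4.19 in KO CD44hi and 3.53 in WT CD44hi. Rfc2 shares 952 of its 6303 exon bases with Lat2 on the opposite strand, which was at 0.424 FPKM in KO iNKT, 1.22 in WT iNKT, 13.5 in KO CD44hi and 6.36 in WT CD44hi. Rfc4 was divided by cell type and not by genotype, and shares 194 of its 1533 exon bases with the abundant gene Eif4a2 (197 to 227 FPKM) on the opposite strand.

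Fen1 and Lig1 finish the lagging strand, Fen1 by cutting the flap at the end of an Okazaki fragment and Lig1 by sealing the nick. Lig1 (chromosome 7, 13277283 to 13311433, plus strand) was at 21.2 FPKM in KO iNKT, 8.65 in WT iNKT, 11.3 in KO CD44hi and 13.6 in WT CD44hi. Fen1 was at 19.4, 14.1, 12.5 and 12.0 FPKM in the same order. Lig1 was called in iNKT (ratio 2.45, interval 2.005 to 3.01) and Fen1 was not (1.38, 1.12 to 1.71). The antisense gene Gm10143 shares 1909 of the 2422 exon bases of Fen1, and Zswim9 shares 247 of the 4268 of Lig1.

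Enzymes of nucleotide supply were higher in KO iNKT in all 4 cases, and Rrm2 was called. Rrm2 (chromosome 12, 24708241 to 24714146, plus strand), the regulatory subunit of ribonucleotide reductase that is made in S phase, was at 35.6 FPKM in KO iNKT, 16.4 in WT iNKT, 14.2 in KO CD44hi and 17.5 in WT CD44hi. Rrm1, the large subunit of the same enzyme, was at 24.9, 13.6, 15.4 and 15.4 FPKM in that order. The iNKT ratios were 2.17 for Rrm2 (interval 1.82 to 2.61) and 1.83 for Rrm1 (1.57 to 2.13). Tyms, thymidylate synthase, was at 5.71 FPKM in KO iNKT, 3.72 in WT iNKT, 2.52 in KO CD44hi and 3.13 in WT CD44hi. Tk1, the thymidine kinase of the salvage route, was at 14.7, 11.3, 11.9 and 7.84 FPKM in the same order. Tyms had an iNKT ratio of 1.54 (1.10 to 2.17), and its processed pseudogene Tyms-ps could share reads with it. Tk1 had the larger ratio in CD44hi, 1.52 (1.28 to 1.80), beside 1.29 in iNKT (0.962 to 1.75).

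Chaf1a and Chaf1b encode subunits of the chromatin assembly factor that places new histones behind the fork. Chaf1a (chromosome 17, 56040439 to 56072289, plus strand) was at 11.5 FPKM in KO iNKT, 3.55 in WT iNKT, 4.85 in KO CD44hi and 4.55 in WT CD44hi. Its iNKT log2 difference of 1.45 was the largest of the 37 genes, with a plain ratio of 3.23 (interval 2.57 to 4.10). Chaf1a shares 4648 of its 8854 annotated exon bases with Ubxn6 on the opposite strand, which was at 30.6 FPKM in KO iNKT, 26.0 in WT iNKT, 30.2 in KO CD44hi and 31.0 in WT CD44hi. Chaf1b was at 9.12 FPKM in KO iNKT, 4.98 in WT iNKT, 6.497 in KO CD44hi and 8.26 in WT CD44hi. Its iNKT ratio was 1.83 (1.27 to 2.66), short of the call.

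**Figure D2:**
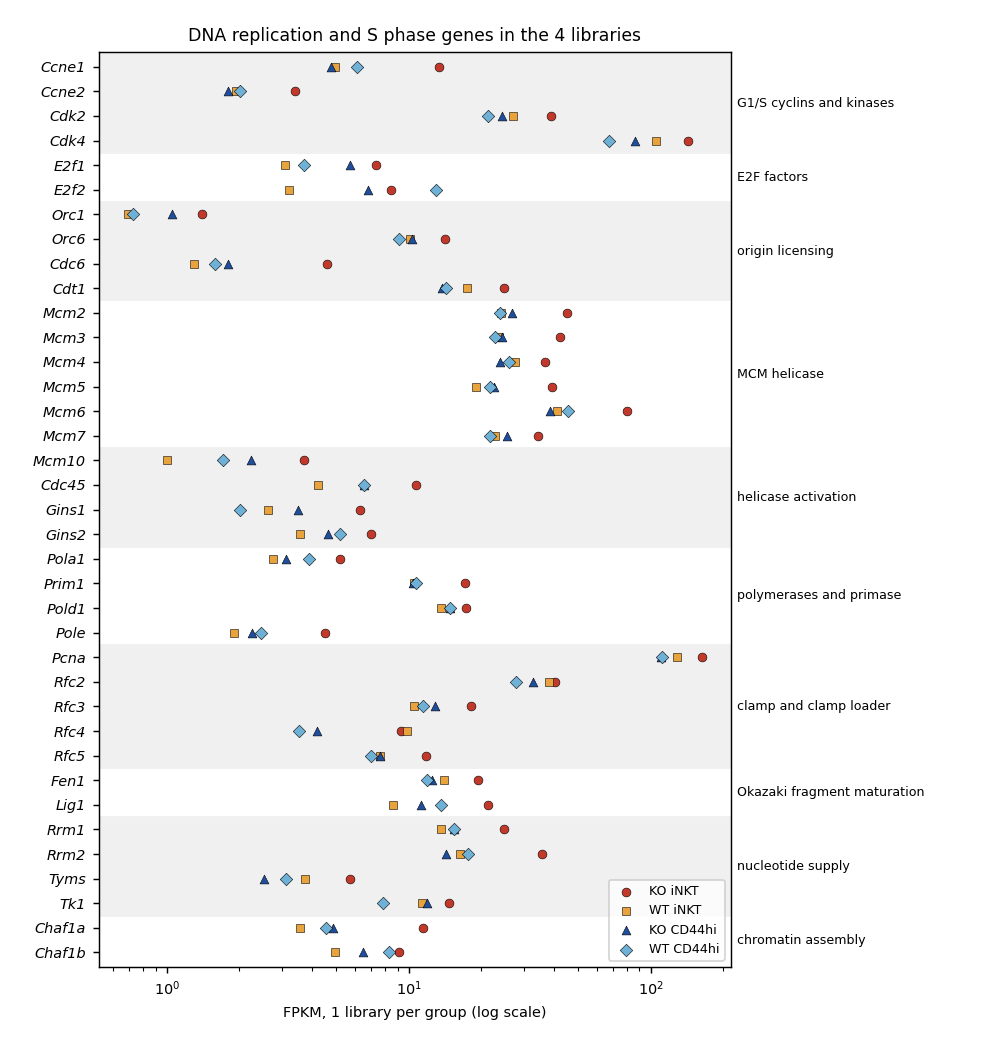
FPKM (log axis) of the 37 genes in role order, with 1 point per library: KO iNKT, WT iNKT, KO CD44hi and WT CD44hi. KO iNKT holds the highest point for 35 of the 37 genes, and the levels run from 0.689 FPKM for Orc1 in WT iNKT to 164 FPKM for Pcna in KO iNKT.

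Over the whole set KO iNKT was the highest library for 35 genes, WT iNKT for Rfc4 and WT CD44hi for E2f2. The lowest library was WT iNKT for 16 genes, KO CD44hi for 9 and WT CD44hi for 12. Pcna, Cdk4 and Mcm6 were the most abundant in each library and in that order, and Orc1 the least abundant. Over the 37 genes the iNKT log2 difference went with the mean log2 level in the iNKT libraries at Pearson r -0.36 and Spearman rho -0.39, as a description of points that share these 2 libraries. Low levels carry fewer fragments and wider intervals.

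The comparison of KO CD44hi with WT CD44hi asks the same question in the sorted CD44hi fraction. None of the 37 genes was called higher, where 2.44% of all 11352 measured genes were, and none lower, where 1.14% were. Their median log2 difference was 0.05, over a range from -0.84 (E2f2) to 0.57 (Gins1), and 19 of the 37 lay above 0, beside 52.4% of all measured genes. The sign of 6 genes changed when the libraries were scaled to the summed T cell genes. Summed over the set, the level was 612 FPKM in KO CD44hi and 592 FPKM in WT CD44hi. The counting interval lay above 1 in 9 genes, beside 29.6% of all genes with an interval, and below 1 in another 9, beside 27.1%. The first 9 were Cdk2, Cdk4, E2f1, Mcm2, Mcm7, Mcm10, Gins1, Rfc2 and Tk1, at ratios from 1.12 (Mcm2) to 1.73 (Gins1). The other 9 were Ccne1, E2f2, Mcm4, Mcm6, Pola1, Lig1, Rrm2, Tyms and Chaf1b, at ratios from 0.525 (E2f2) to 0.913 (Mcm4). These libraries were deep enough that counting error alone leaves differences as small as that of Mcm2 outside the interval. Gins1, the highest ratio, was at 3.49 FPKM in KO CD44hi and 2.02 in WT CD44hi, with an interval from 1.18 to 2.58.

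Markers of other cells differed between the 2 CD44hi libraries, and their part in these values was not tested. The 14 red cell genes summed to 761 FPKM in KO CD44hi and 169 in WT CD44hi, with Hba-a1 at 509 and 115 and Hbb-b1 at 169 and 33.4. The 13 myeloid and plasmacytoid dendritic cell genes summed to 922 FPKM in KO and 445 in WT, with Tyrobp at 305 and 121 and Bst2 at 195 and 64.1. The 7 plasma cell genes summed to 245 FPKM in KO and 104 in WT, with Jchain at 154 and 40.3 and Xbp1 at 55.7 and 39.5. Of the 5 germinal centre B cell genes, S1pr2 was at 6.49 and 10.01 FPKM and Mef2b at 0.464 and 1.80, and the sums were 7.43 in KO and 13.1 in WT. In these 5 lists the markers listed at 0 were S100a8 and S100a9, in WT CD44hi. The levels of Eif2s3y and Zbtb16 differed between these libraries as well.

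Set side by side, the genotype difference was larger in iNKT than in CD44hi for 34 of the 37 genes, with Rfc2, Rfc4 and Tk1 the exceptions, beside 53.4% of the 10453 genes measured in both comparisons. It was above 0 in both cell types for 18 genes, beside 30.5% of those 10453, above 0 in iNKT and below 0 in CD44hi for another 18, beside 25%, and the reverse for Rfc4, beside 20.7%. The difference between cell types was not tested, since each group was 1 library. Across the 37 genes the 2 genotype differences had Pearson r -0.27 and Spearman rho -0.26, a description of genes and not of replicates. Chaf1a, the largest in iNKT at 1.45, had a CD44hi log2 difference of 0.08, and Cdc6, at 1.28 in iNKT, had 0.11.

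WT iNKT was compared with WT CD44hi to ask whether the cell types differ without the deletion. Of the 36 measured genes Rfc4 was called higher in WT iNKT, where 3.65% of all 11217 measured genes were. E2f2 was called lower, where 10.9% were. Rfc4 was not called with 5 FPKM added. Their ratios were 2.78 for Rfc4 (interval 1.95 to 3.94) and 0.246 for E2f2 (0.192 to 0.312). The median log2 difference of the set was -0.07, beside -0.06 over all measured genes, of which 44.5% lay above 0, and 16 of the 36 genes did. Intervals lay above 1 for 7 genes, beside 26.2% of all genes with one, and below 1 for 10, beside 38% of them. The 7 were Cdk2, Cdk4, Cdt1, Pcna, Rfc2, Rfc4 and Tk1. Those below 1 were E2f2, Mcm5, Mcm6, Mcm10, Cdc45, Gins2, Pola1, Lig1, Chaf1a and Chaf1b. Cdk4 was at 105 FPKM in WT iNKT and 67.4 in WT CD44hi, a ratio of 1.56 (1.45 to 1.67). Lig1 was at 8.65 FPKM in WT iNKT and 13.6 in WT CD44hi, a ratio of 0.635 (0.525 to 0.764).

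KO iNKT was compared with KO CD44hi in the same way, and the 2 comparisons of cell type share no library with each other but each shares libraries with the genotype comparisons. All 37 genes were higher in KO iNKT, by a median log2 difference of 0.65, beside -0.02 over all measured genes, of which 48.2% were higher. Called higher were 5 of the 37, where 3.03% of all 11470 measured genes were, and 0 were lower, where 9.07% were. The 5 were Ccne1 (log2 difference 1.32), Rrm2 (1.26), Chaf1a (1.09), Mcm6 (1.05) and Cdc6 (1.004), and Rfc4 lay just outside at 0.99. With 5 FPKM added 1 was called, where 1.05% of all genes were higher, and at 1.5-fold 22 were, where 10.5% were. The interval lay above 1 in 35 genes, beside 30.7% of all genes with one, and below 1 in 0, beside 34.2%. Orc1 and Tk1 had intervals that held 1. The marker sums of red, myeloid, plasma and B cells were lower in the iNKT than in the CD44hi libraries of each genotype, and what they add to the CD44hi levels was not tested.

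**Figure D3:**
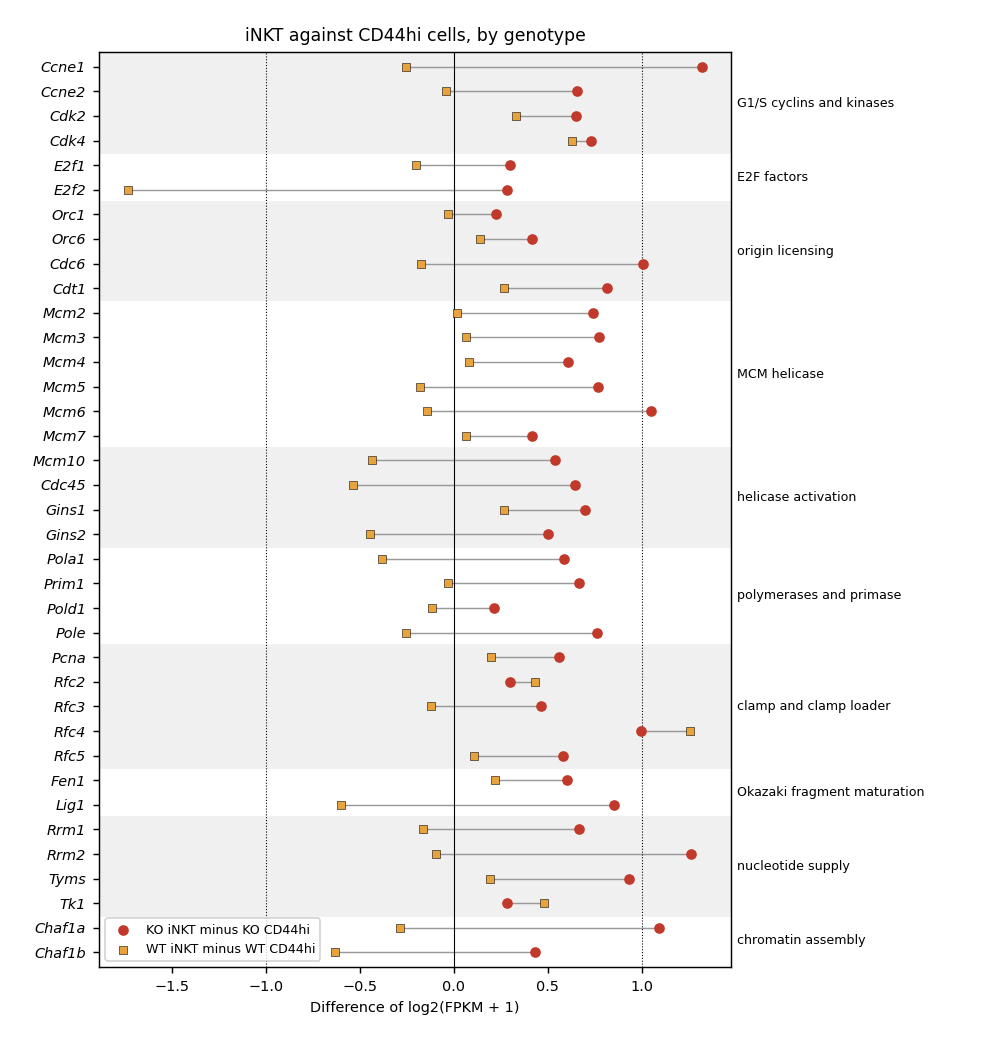
Difference of log2(FPKM + 1) between iNKT and CD44hi cells for the 37 genes, KO iNKT minus KO CD44hi (circles) and WT iNKT minus WT CD44hi (squares), with dotted lines at a 2-fold difference and 1 library per group. All 37 circles lie above 0, and the squares lie on both sides of 0 with E2f2 the lowest at -1.74.

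Other genes of the replication machinery were taken from a list of 53, all of them measured. Of these 10 were called higher in KO iNKT than in WT iNKT and 0 lower, beside 6.08% and 3.35% of all measured genes, with a median log2 difference of 0.37. In 9 of the 53 the difference was below 0, beside 4771 of all 10817 measured genes. The interval lay below 1 in 4 of the 52 genes that had one, beside 20.1% of all genes with an interval. Samhd1, which breaks down deoxynucleotides and was picked out after its values were seen, was at 41.4 FPKM in KO iNKT, 83.6 in WT iNKT, 89.4 in KO CD44hi and 144 in WT CD44hi, just short of the call at a log2 difference of -0.998 in iNKT. In KO CD44hi against WT CD44hi 0 were called in either direction, with a median of -0.03. That is near the 2.44% higher and 1.14% lower of all measured genes. Uhrf1, which brings DNA methylation to new strands, had the largest difference, at 25.6 FPKM in KO iNKT, 6.14 in WT iNKT, 9.85 in KO CD44hi and 9.49 in WT CD44hi. Dctpp1, which clears unwanted nucleotides, was at 27.1, 9.90, 27.4 and 17.8 FPKM in the same order. Both were called in iNKT, at ratios of 4.17 for Uhrf1 (interval 3.38 to 5.18) and 2.73 for Dctpp1 (1.82 to 4.20). The next in size were Dscc1 (log2 difference 1.20) and Chtf18 (1.14), parts of an alternative clamp loader, Shmt1 (1.20), which feeds thymidylate synthesis, and Dut (1.19), the dUTPase.

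Genes that control the step into S phase were taken from a list of 30. Of 27 measured in the iNKT pair, 1 was called higher and 1 lower, near the 6.08% and 3.35% of all measured genes, with a median log2 difference of 0.22. Rbl2, the retinoblastoma family member p130 found in resting cells, was at 43.7 FPKM in KO iNKT, 103 in WT iNKT, 47.5 in KO CD44hi and 43.6 in WT CD44hi. It was called lower in KO iNKT, at a ratio of 0.425 (interval 0.396 to 0.456), and WT iNKT stood apart from the other 3 libraries. Cdkn1c, a CDK inhibitor, was called higher, at 1.47 FPKM in KO iNKT and 0.228 in WT iNKT, from 14.8 and 2.1 estimated fragments (ratio interval 1.55 to 53.6). Cdkn1b, the CDK inhibitor p27, was at 36.3 FPKM in KO iNKT, 64.8 in WT iNKT, 58.1 in KO CD44hi and 79.8 in WT CD44hi, lower in KO in both cell types but short of the call. Ccna2, cyclin A, was at 16.0, 9.48, 7.94 and 10.3 FPKM in the same order, so that KO was the higher library in iNKT and the lower one in CD44hi. The D cyclins Ccnd2 and Ccnd3, partners of Cdk4, had iNKT log2 differences of -0.32 and -0.41, and Rb1 had 0.21. In KO CD44hi against WT CD44hi 0 of 28 measured genes of this list were called, near the 2.44% higher and 1.14% lower of all measured genes.

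Mitosis genes, which follow S phase in the cycle, were taken from a list of 41 to set the replication genes beside a later phase. In KO iNKT against WT iNKT 5 were called higher (Ccnf, Cdc20, Top2a, Aurka and Ndc80) and 0 lower, beside 6.08% and 3.35% of all measured genes, and the median log2 difference was 0.71, close to the 0.73 of the replication genes. In KO CD44hi against WT CD44hi 0 of 40 measured were called, with a median of -0.09. Of all measured genes 2.44% were called higher and 1.14% lower there, so 0 is near that share. Top2a, the topoisomerase that untangles chromosomes, was at 34.1 FPKM in KO iNKT, 14.7 in WT iNKT, 14.8 in KO CD44hi and 16.6 in WT CD44hi. Mki67, which encodes the Ki-67 antigen of cycling cells, was at 17.7, 8.47, 14.8 and 18.1 FPKM in that order. Both had KO iNKT above WT iNKT, with Top2a past the call and Mki67 just short of it at 0.98. Summed over the 41 genes, the level was 460 FPKM in KO iNKT, 286 in WT iNKT, 318 in KO CD44hi and 376 in WT CD44hi.

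**Figure D4:**
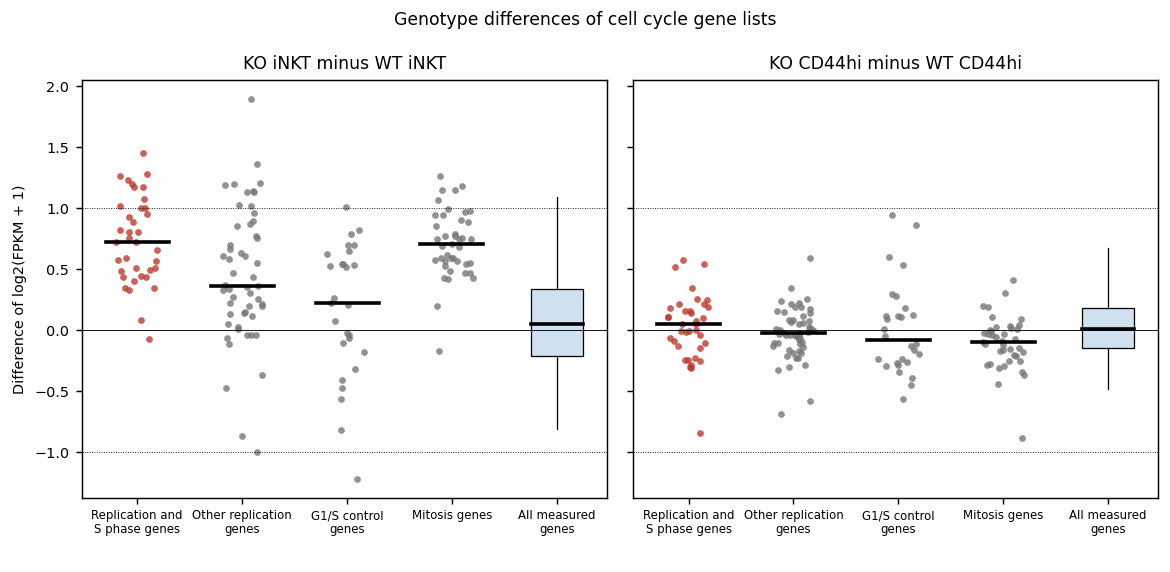
Difference of log2(FPKM + 1) per gene for 4 gene lists and for all measured genes, KO iNKT minus WT iNKT on the left and KO CD44hi minus WT CD44hi on the right; bars are list medians, the box shows the median and quartiles of all measured genes with whiskers to the 5th and 95th percentiles, and dotted lines mark 2-fold. On the left the replication genes (median 0.73) and the mitosis genes (0.71) sit above all measured genes (0.05), and on the right every list median lies within 0.1 of 0.

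The promoter windows were read over all the genes that have one in the RefSeq table, 31 of the 37 (Ccne2, Mcm4, Gins1, Gins2, Pole and Rfc2 were not matched). A gene with several windows was counted as holding an element if any of them matched. The 8-letter E2F element was found in 13 of the 31, or 41.9%, beside 2.6% of all 27025 genes with a window. Among the expressed genes, those that reached 1 FPKM in any library, the share was 4.82%. The 7-letter form, which lies within every 8-letter match, was found in 64.5% of the 31, beside 10.9% of all genes and 19.8% of the expressed ones. The 8-letter element was also found in 27.3% of 44 other replication genes and in 31.8% of 22 G1/S control genes. The 7-letter form was found in 47.7% and 40.9% of these lists. Of the 35 mitosis genes with a window, 5.71% held the 8-letter element. For the CHR element (TTTGAA or TTCGAA, the second of which reads alike on both strands) the order of these lists was the other way. It was found in 19.4% of the replication genes and 74.3% of the mitosis genes. The share was 21.7% of all genes and 16.3% of the expressed ones. CCAAT was found in 58.1% of the replication genes and 77.1% of the mitosis genes, beside 41.1% of all genes and 43.5% of the expressed ones. For Cdc6, Lig1 and Mcm7 the window with the 8-letter match starts from RefSeq and lies inside the gene as GENCODE places it. The elements were chosen after the values were seen, and an exact match describes letters and not binding. The median iNKT log2 difference was 0.73 in the 13 replication genes with the 8-letter element and 0.71 in the 18 without it. In the 6 with no window it was 0.70. Some of the 18, such as Chaf1a, held the 7-letter form, and a part of E2F in these differences was not tested. Of the called genes 4 had the 8-letter element (E2f2, Cdc6, Mcm5 and Lig1), 6 did not, and Gins1 had no window. Chaf1a and Ccne1 were among the 6, and Pold1, with the element, had one of the smallest differences at 0.33.

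**Figure D5:**
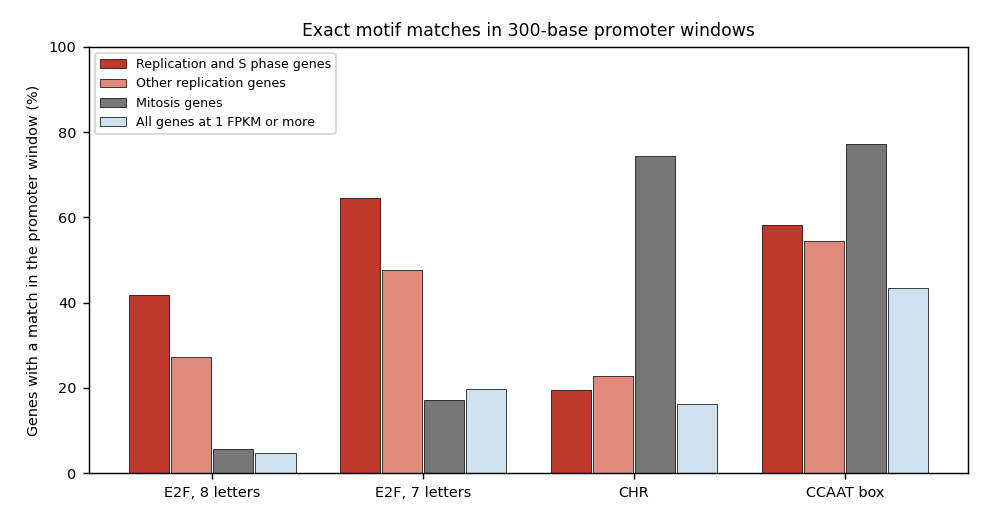
Share of genes (%) with an exact match on either strand in a promoter window of 300 bases, for 4 motif sets and 4 groups of genes. The E2F bars are tallest for the replication genes (41.9% and 64.5%) and the CHR bar is tallest for the mitosis genes (74.3%).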

How the data were processed

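RNA was measured by sequencing in 4 libraries, 1 per group. Per the labels' protocols, RNA came from TRIzol extraction with Picopure columns and libraries from a TruSeq v2 kit, which does not mark strand. Per the file headers, the authors deposited FPKM values listed by gene symbol. Per the submitters' processing notes, the build was mm10 and the tools were Cufflinks 2.0.2, TopHat 1.3.2 and Bowtie2 2.0.0. The annotation, filters and strand setting are not given in the sources used here, so overlapping genes and near-identical copies are uncertain. Not every overlap on the opposite strand was named above. Cdc45 shares 209 of its 3506 exon bases with Ufd1, Mcm7 321 of 4426 with Ap4m1 and Orc6 171 of 2469 with Vps35.

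Rows sharing a symbol (240 symbols) were summed, 785 small RNA symbols and 26 symbols absent from some files were left out, and 22473 were used. Differences are of log2(FPKM + 1), which understates the differences of low genes. A gene was measured at 1 FPKM or more in either library and called at 2-fold. The files give no counts, so fragments were estimated from how far apart low FPKM values lie in transcripts of at least 3000 bases (GENCODE M21 lengths). The length of a gene was that of its longest transcript with a RefSeq match. Where a shorter transcript is the one expressed, its fragments are overestimated and its interval is too narrow. A length was found for 87.1% of the 11716 genes that reached 1 FPKM in any library. In a transcript of 2 kilobases 1 fragment was worth 0.0946 FPKM in KO iNKT, 0.102 in WT iNKT, 0.0208 in KO CD44hi and 0.0277 in WT CD44hi. Ratios carry 95% exact (Clopper-Pearson) intervals for counting error only. With 1 library per group there was no test, standard error or p-value.

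The 37 genes, the other lists and the motifs were chosen with earlier results of these data known. Beyond the 37, named genes were up to 6 called genes per cell cycle list and genotype comparison, a set of 8 cell cycle genes named in every case, and the 2 most abundant genes of each marker list. Promoters came from RefSeq (GRCm38.p6), matched by symbol. Other pseudocounts, low-value filters, scalings and a 1.5-fold call were tried. Python 3.11.15, pandas 2.3.3, numpy 2.4.6, scipy 1.17.1 and matplotlib 3.10.9 were used.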

Additional observations from a re-analysis of the deposited data

Results flagged for a closer look

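In 9 of the 37 genes the genotype ratio had a counting interval above 1 in iNKT and below 1 in CD44hi, beside 8.45% of the 9155 genes with an interval in both comparisons. This opposite direction in the 2 cell types marked them for a closer look, and the difference between cell types was not tested, with 1 library per group. The values below are the log2(FPKM + 1) difference between KO and WT in iNKT minus that in CD44hi. E2f2 had the largest, 2.02, and was at 8.49 FPKM in KO iNKT, 3.20 in WT iNKT, 6.82 in KO CD44hi and 12.99 in WT CD44hi. Ccne1 followed at 1.57, Lig1 at 1.45 and Rrm2 at 1.36. Mcm6 had 1.19, Chaf1b 1.06 and Pola1 0.97. Tyms had 0.74 and Mcm4 0.53, the smallest of the 9.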

How the results depend on the processing

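The count of genes higher in KO iNKT than in WT iNKT was 11, and 9 to 14 under another pseudocount of 0.1 FPKM, other low-value filters and other scalings. With a pseudocount of 5 FPKM it was 0 (1.83% of all genes), and it was 22 with a call at 1.5-fold (14.3%). The number higher in KO iNKT than in KO CD44hi was 1 with a pseudocount of 5 FPKM and 22 at 1.5-fold (1.05% and 10.5% of all genes), against 5. In WT iNKT against WT CD44hi the number higher was 0 with 5 FPKM (1.72% of all genes) and 2 at 1.5-fold (10.3%), and the number lower was 3 at 1.5-fold (19%), against 1 and 1, so at 1.5-fold both lay below the share of all genes. In KO CD44hi against WT CD44hi 1 gene was lower at 1.5-fold (3.47% of all genes), against 0. Both settings move the calls by their construction, since a larger pseudocount shrinks differences of low genes. The median log2 difference of the 37 genes in KO iNKT against WT iNKT lay between 0.50 and 0.86 in all settings run. Scaling to the summed T cell genes moved the median of all genes in that comparison from 0.05 to 0.17, and that of the 37 genes to 0.85. In WT iNKT against WT CD44hi, scaling to the same summed FPKM moved the median of all genes to -0.17, with the 37 genes at -0.17. In KO iNKT against KO CD44hi, scaling to the T cell genes moved the median of all genes from -0.02 to 0.09. No named gene that was called in a genotype comparison changed sign under the pseudocounts and scalings run. No paired analysis was possible because each group was 1 library, and leaving out a replicate was not possible for the same reason. Depth limits the low genes of the iNKT libraries, such as Orc1.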
